A study of Mus musculus with 8 samples.

Results

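The 31 transcription factors described here specify germ layers, trophoblast and mesenchyme, and they were taken by name from a list that includes *Runx1*. Every one of the 31 had a row in the table of 50600 gene names. A factor was called detected where its mean over the 8 libraries was at least 1, and 15 of the 31 (48.4%) were detected, against 13101 of all 50600 rows (25.9%). Most rows of the table, 33075 (65.4%), were at 0 in every library. The rows were not limited to protein-coding genes, as all 31 factors are, so these shares are of unlike sets of genes. Values are TPM, a read count scaled for transcript length and library total, which the deposited table holds as whole numbers, so that levels may be compared between genes.

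RNA-seq was performed on mouse embryonic stem cells (ESCs) of the OG2 transgenic background, in which a transgene expresses GFP from the *Oct4* (*Pou5f1*) promoter, of a strain mixture of 129SVJ (1/2), C57B6 (3/8) and CBA (1/8), with the genotype c-Jun_TetOn_mESC. In these cells doxycycline switches on a *Jun* transgene, and the cells were grown without feeders in serum medium with LIF, PD0325901 and Chir99021 and taken at passage 12. The 4 groups had 2 libraries each, and all 8 libraries had 2 µg/ml doxycycline together with DMSO (the vehicle), PFI-3 (a ligand of the BRG1 bromodomain), BI-9564 (a ligand of the BRD9 and BRD7 bromodomains) or both compounds (P+B), for 6 h by the labels. The study's own legend gives a longer *Jun* induction than the labels do, the labels give no compound dose, and nothing states whether the 2 libraries of a group came from separate cultures, so that the p-values measure the spread between these libraries, which may be technical. No library without doxycycline is used here, so the values describe JUN-induced cells and not the response to JUN. The labels do not say whether the line is 1 clone, and in bulk RNA fewer cells of a type and less RNA per cell cannot be told apart.

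Lineage-specifying factors bind enhancers of the genes of 1 cell type and often of their own gene, and in ESCs most of them are silent or held at low levels until the cells leave the pluripotent state. RUNX proteins bind DNA through their Runt domain as heterodimers with CBFβ, and RUNX1 is known for its part in the formation of blood stem cells. JUN belongs to the AP-1 family, whose dimers bind short palindromic elements, and BRG1 and BRD9 are subunits of BAF chromatin remodeling complexes.

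The cells in all 8 libraries carried the transcripts of ESCs. All 10 of the ESC markers were present in every library, with *Pou5f1* at 1104 to 1333 TPM, while the 10 fibroblast markers summed to 0 to 5 TPM, with 6 of them, *Col1a2* and *Pdgfra* included, at 0 in all libraries. The 6 endoderm products summed to 0 to 4 TPM, with *Afp* and *Ttr* at 0. The 8 trophoblast products summed to 87 to 360 TPM. Of these, *Prl3d1*, *Psg17*, *Tpbpa* and *Krt7* were listed at 0 in every library, and *Plac1* did not pass 2 TPM. *Krt8* (30 to 163 TPM), *Krt18* (20 to 103 TPM) and *Peg10* (37 to 93 TPM) were present in all 8 libraries. *Jun* was at 1970 and 2877 TPM in the DMSO libraries, 1570 and 2227 in those of PFI-3, 2071 and 3011 in those of BI-9564 and 1569 and 2159 in those of P+B, and in each of the 4 groups the library numbered 2 had the higher value. The whole-number values summed to 991574 to 991897 per library, which is a result of the unit, and the depth in reads is unknown.

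The sequences shown first are those in front of *Runx1* and *Cdx2*, the factors with the lowest and the highest fitted difference with P+B. *Runx1* lies on the minus strand of GRCm38 at chr16:92601466-92826149 and is transcribed from a distal and a proximal start. From the windows before each start held in RefSeq's table (GRCm38.p6), only bases outside every GENCODE exon are printed, 5′ to 3′ on the minus strand, with the AP-1 half-sites TGAC and GTCA (one is the reverse complement of the other, and they may overlap) in capitals.
Runx1 distal, chr16:92826150-92826324: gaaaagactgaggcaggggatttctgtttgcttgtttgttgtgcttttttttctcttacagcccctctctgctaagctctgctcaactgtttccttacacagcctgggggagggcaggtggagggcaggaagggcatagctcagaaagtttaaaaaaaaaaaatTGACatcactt
Runx1 proximal, chr16:92697330-92697579: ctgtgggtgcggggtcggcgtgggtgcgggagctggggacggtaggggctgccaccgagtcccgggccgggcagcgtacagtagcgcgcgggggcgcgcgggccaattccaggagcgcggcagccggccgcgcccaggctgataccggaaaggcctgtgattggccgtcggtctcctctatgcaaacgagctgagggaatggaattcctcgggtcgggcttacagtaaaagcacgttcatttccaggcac
Cdx2, chr5:147307271-147307499: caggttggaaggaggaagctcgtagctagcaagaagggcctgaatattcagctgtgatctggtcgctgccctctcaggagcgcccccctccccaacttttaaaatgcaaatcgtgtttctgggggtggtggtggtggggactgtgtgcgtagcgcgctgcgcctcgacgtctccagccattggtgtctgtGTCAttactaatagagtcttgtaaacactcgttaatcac
The distal *Runx1* window of 250 bases held 2 half-sites, of which 1 lies in the printed 175 bases, whereas the proximal window held 0 and the *Cdx2* window 1. The table of expression is per gene and does not separate transcripts from the distal and the proximal start. Half-sites are frequent: 80.2% of the 32851 windows of the table held at least 1, as did 26 of 29 windows of the 21 factors that matched the table. The full AP-1 element TGANTCA was found in 6.75% of all windows and in 0 of the 29, and the related element TGACGTCA in 1.55% of all and in 1 of the 29, that of *Pax6*. These are matches of letters on either strand of a short window, and say nothing of binding.

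The study also measured *Runx1* by RT-qPCR, and its primers show which part of the transcript it followed; the values of that assay are not used here.
Runx1 forward primer: GCAGGCAACGATGAAAACTACT
Runx1 reverse primer: GCAACTTGTGGCGGATTTGTA
On GRCm38 the forward primer matched coding exon 4 of *Runx1* (chr16:92689063-92689084) and the reverse primer coding exon 5 (chr16:92668761-92668781), giving a product of 161 bases that crosses an intron. Both were carried by 3 coding transcripts and by 1 gene only.

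Of the 31 factors, 12 (38.7%) were listed at 0 in all 8 libraries, against 65.4% of all rows, which were not limited to protein-coding genes. Of these 12 factors, 8 were factors of endoderm or of early mesoderm. Of the 7 endoderm factors, *Sox7*, *Foxa1*, *Foxa2* and *Hnf4a* were at 0, *Gata6* and *Sox17* did not pass 1 TPM in any library, and *Gata4* alone was detected. Of the 6 factors of the primitive streak and its mesoderm, *Gsc*, *Mesp1*, *Tbx6* and *Lhx1* were at 0, *Mixl1* did not pass 1 TPM in any library, and the T-box factor *Eomes* alone was detected. The remaining factors at 0 were *Runx2* (the regulator of bone formation), *Hand2* (heart and limb), *Sox9* (cartilage) and *Sox10* (neural crest). *Elf5*, an ETS factor of trophoblast stem cells, was at 1 TPM in a single library. The detected factors began at a mean of 1.5 TPM (*Sox1*), and the highest undetected ones, *Sox17* and *Mixl1*, had a mean of 0.25, so that no mean lay between these. At a limit of 2 TPM 12 factors were counted, since *Sox1*, *Pax6* and *Msx1* (means of 1.5 to 1.75) then fell out. Over the DMSO libraries alone 14 factors had a mean of at least 1, since *Cdx2* (DMSO mean of 0.5) then fell out. Since decimals are not kept, a value of 0 means listed at 0 and does not show absence.

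**Figure D1:**
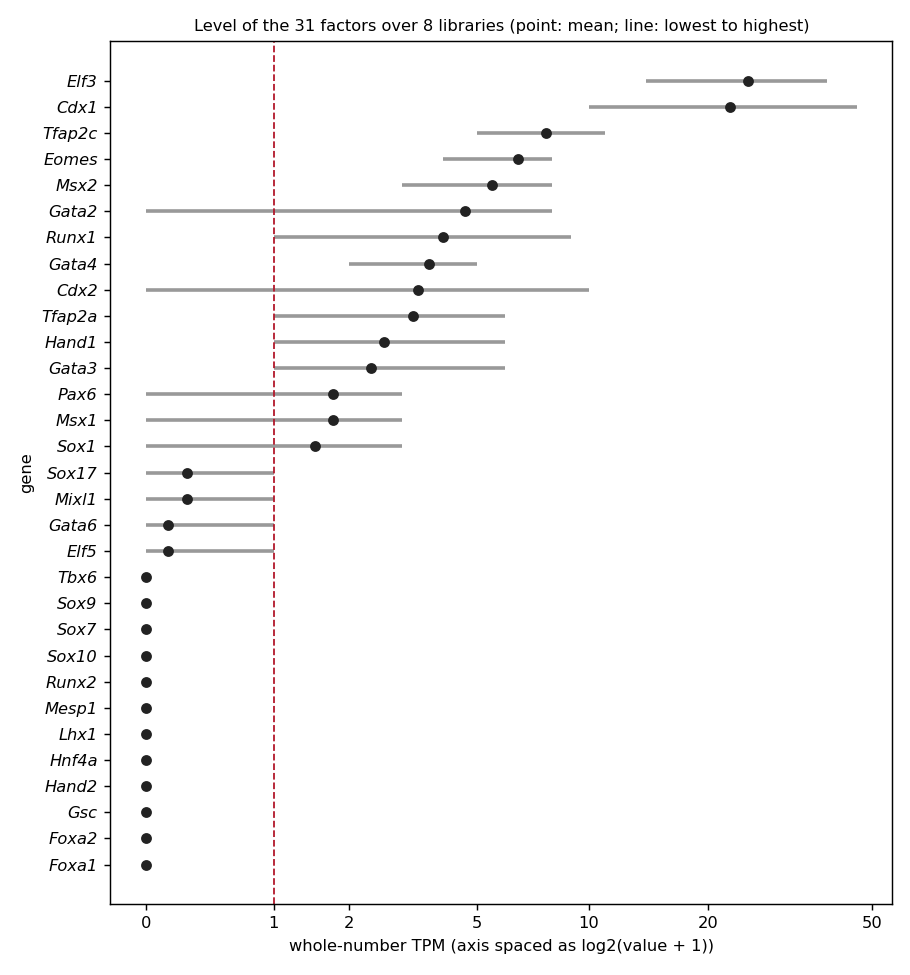
Level of each of the 31 factors (rows) in whole-number TPM on an axis spaced as log2(value + 1); points are means over 8 libraries, lines run from the lowest to the highest library and the dashed line is the detection limit of 1. *Elf3* and *Cdx1* stand above the rest, 13 further factors lie between means of 1.5 and 7.75, and 16 lie at or near 0.

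The levels of the detected factors were low. *Elf3*, an epithelial ETS factor, had a mean of 25.1 TPM and *Cdx1* a mean of 22.6 TPM, and the other 13 had means from 1.5 to 7.75 TPM. At such levels the whole-number steps are coarse: from 1 to 2 TPM is a step of 0.585 on the log2(value + 1) scale and from 20 to 21 a step of 0.067. Differences below are on that scale, which understates changes of low genes, with their standard errors (SE) from limma (all 8 libraries in 1 fit, 2 a group, 4 residual degrees of freedom). A gene was called at a Benjamini-Hochberg adjusted p under 0.05 over the 13101 genes tested together with a fold of at least 1.5.

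To see how the factors fared when both compounds were present, P+B was compared with DMSO. *Runx1*, *Hand1* and *Gata3* had lower values in the P+B libraries than in either DMSO library, and *Cdx2*, *Cdx1*, *Msx1*, *Gata4* and *Sox1* had higher values. None of these passed the thresholds: 0 of the 15 detected factors were called by limma, against 339 of the 13101 genes (2.59%; 91 higher, 0.695%, and 248 lower, 1.89%). Both counts depended on the settings. With the replicate number as a block 3 factors and 647 genes were called, and with centring on the library median 2 factors and 443 genes. An unadjusted p under 0.05 was reached by 3 of the 15 and by 20.5% of all genes, and the groups did not overlap for 8 of the 15 (5 higher, 3 lower), against 43.6% of all genes (26% higher, 17.5% lower). *Cdx2*, which is in both of these counts, passed the detection limit only through the treated libraries. For 1 gene, the smallest p that 2 libraries against 2 allow in an exact permutation test, two-sided, is 0.333. The median difference was 0.45 over the 15 factors and 0.07 over all genes tested.

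*Runx1* was at 4 and 9 TPM in the DMSO libraries, 2 and 3 in those of PFI-3, 6 and 6 in those of BI-9564 and 1 and 1 in those of P+B. Both P+B libraries lay under every other library, both PFI-3 libraries lay under those with DMSO or BI-9564, and the BI-9564 libraries lay between the 2 DMSO libraries. P+B minus DMSO was −1.82 (SE 0.393, 95% interval −2.75 to −0.90, adjusted p = 0.058 by limma) and did not pass the threshold. With each library centred on its median it was −1.89 and the adjusted p 0.0428. With the replicate number as a block in the fit the adjusted p was 0.0359 by limma, although these numbers were not taken as pairs. The call thus depended on these settings. Left-out libraries moved the difference between −2.32 (without DMSO replicate 1) and −1.32 (without DMSO replicate 2), with adjusted p-values of 0.104 to 0.218. The lost decimals alone allow values from −2.34 to −1.24, taking the cases that they were rounded or dropped together. An antisense gene, *Gm26626*, overlaps *Runx1*, and without a stated strand setting its reads cannot be told apart.

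*Hand1*, a bHLH factor of trophoblast giant cells, extraembryonic mesoderm and heart (chr11:57828705-57832818), was at 4 and 6 TPM in the DMSO libraries, 3 and 1 in those of PFI-3, 2 and 3 in those of BI-9564 and 1 and 1 in those of P+B. The DMSO libraries were the 2 highest of the 8. P+B minus DMSO was −1.56 (SE 0.442, adjusted p = 0.108 by limma). *Gata3*, a zinc finger factor of trophoblast and T lymphocytes (chr2:9857078-9890034), was at 6 and 2 TPM in the DMSO libraries, 3 and 1 in those of PFI-3, 3 and 2 in those of BI-9564 and 1 and 1 in those of P+B. Only DMSO replicate 1 stood above the others, and P+B minus DMSO was −1.20 (SE 0.537, adjusted p = 0.265), with −0.59 left without DMSO replicate 1 and −1.81 without DMSO replicate 2. Overlapping genes of *Gata3* number 3 (*4930412O13Rik*, *9230102O04Rik* and *Gm13256*) and 1 of them is on the same strand, so its values are uncertain to that extent. Its relative *Gata2*, which acts in blood progenitors and trophoblast, was at 4 and 2 TPM in the DMSO libraries, 4 and 7 in those of PFI-3, 8 and 4 in those of BI-9564 and 8 and 0 in those of P+B. The 2 P+B libraries held the highest value (level with BI-9564 replicate 1) and the lowest value of *Gata2*, and its difference of −0.37 had the largest SE of the 15, 0.937.

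*Cdx2*, the homeobox factor of trophectoderm and of the posterior embryo (chr5:147300805-147307270), was at 1 and 0 TPM in the DMSO libraries, 2 and 3 in those of PFI-3, 2 and 4 in those of BI-9564 and 5 and 10 in those of P+B. Every treated library was above both DMSO libraries, and both P+B libraries were above all others. The DMSO mean was 0.5 TPM, so that *Cdx2* passed the detection limit only through the treated libraries. P+B minus DMSO was 2.52 (SE 0.512, 95% interval 1.32 to 3.72, adjusted p = 0.0509 by limma), just short of the threshold. With centring on the library median it was 2.45 with an adjusted p of 0.0415, and the lost decimals allow 1.73 to 2.82. With the replicate block the adjusted p was 0.0403 by limma. *Cdx1*, a caudal factor of the posterior embryo and a known target of Wnt signaling, was at 14 and 19 TPM in the DMSO libraries, 18 and 30 in those of PFI-3, 10 and 20 in those of BI-9564 and 24 and 46 in those of P+B. Both P+B libraries lay above both DMSO libraries, but PFI-3 replicate 2 exceeded P+B replicate 1, and in all 4 groups the library numbered 2 had the higher *Cdx1*, as it had the higher *Jun*; whether these move together was not tested. P+B minus DMSO was 0.98 (SE 0.423, adjusted p = 0.246), and it was 0.53 without P+B replicate 2 and 1.44 without P+B replicate 1. With the replicate block the SE was 0.166 and the adjusted p 0.0245 by limma, so that the call depended on this setting.

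**Figure D2:**
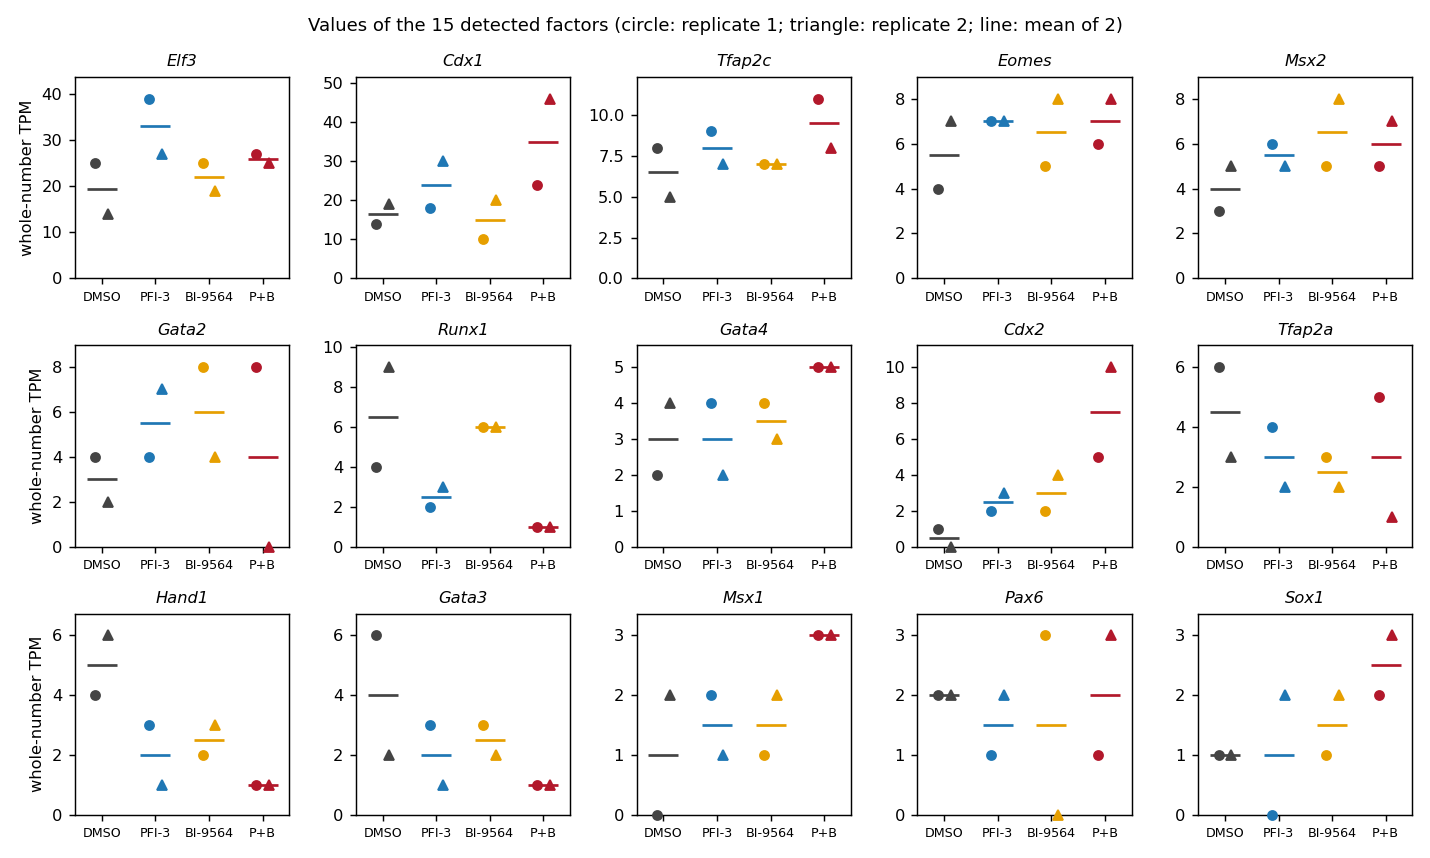
Whole-number TPM (vertical axes, each from 0) of the 15 detected factors in the 4 groups (horizontal axes); circles are replicate 1, triangles replicate 2 and lines the mean of 2 libraries. *Runx1*, *Hand1* and *Gata3* are at 1 in both P+B libraries, while *Cdx2* is at 5 and 10 there against 1 and 0 with DMSO.

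Among the factors of trophoblast and epithelium, *Tfap2c*, which acts in trophoblast and germ cell precursors, was at 8 and 5 TPM in the DMSO libraries, 9 and 7 in those of PFI-3, 7 and 7 in those of BI-9564 and 11 and 8 in those of P+B. *Elf3* (chr1:135253575-135258568) was at 25 and 14 TPM in the DMSO libraries, 39 and 27 in those of PFI-3, 25 and 19 in those of BI-9564 and 27 and 25 in those of P+B. For both the DMSO and P+B values met or overlapped, with differences of 0.50 for *Tfap2c* (SE 0.282, adjusted p = 0.369 by limma) and 0.45 for *Elf3* (SE 0.294, adjusted p = 0.434). Without DMSO replicate 1 or 2 these were 0.79 or 0.21 for *Tfap2c* and 0.85 or 0.05 for *Elf3*. *Elf3* had its highest value in PFI-3 replicate 1, and in each group the library numbered 2 had the lower *Elf3*.

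The homeobox factors *Msx1* and *Msx2*, which respond to BMP signaling in mesenchyme, were detected as well. *Msx1* was at 0 and 2 TPM in the DMSO libraries, 2 and 1 in those of PFI-3, 1 and 2 in those of BI-9564 and 3 and 3 in those of P+B, and *Msx2* at 3 and 5, 6 and 5, 5 and 8, and 5 and 7 in the same order. The P+B libraries were the highest for *Msx1* by 1 TPM, a single step of the table (difference 1.21, SE 0.591, adjusted p = 0.302 by limma), and overlapped with the others for *Msx2* (0.50, SE 0.335). The endoderm and heart factor *Gata4* was at 2 and 4, 4 and 2, 4 and 3, and 5 and 5 TPM, again 1 step above the rest with P+B (0.63, SE 0.391, adjusted p = 0.412). *Eomes*, which acts in trophoblast and in the primitive streak, was at 4 and 7, 7 and 7, 5 and 8, and 6 and 8 TPM and overlapped in all groups (0.33, SE 0.327). Without DMSO replicate 1 or 2 the difference was 0.42 or 2.00 for *Msx1*, 0.21 or 0.79 for *Msx2* and 0.26 or 1.00 for *Gata4*.

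The neural factors *Pax6* and *Sox1* were among the lowest. *Pax6*, the paired box factor of eye and forebrain, was at 2 and 2 TPM in the DMSO libraries, 1 and 2 in those of PFI-3, 3 and 0 in those of BI-9564 and 1 and 3 in those of P+B, and *Sox1*, an early marker of neuroectoderm, at 1 and 1, 0 and 2, 1 and 2, and 2 and 3. *Tfap2a*, an AP-2 factor of neural crest and surface ectoderm, was at 6 and 3 TPM in the DMSO libraries, 4 and 2 in those of PFI-3, 3 and 2 in those of BI-9564 and 5 and 1 in those of P+B. The P+B and DMSO values overlapped for *Pax6* (difference −0.09, SE 0.705) and *Tfap2a* (−0.61, SE 0.590) and were 1 step apart for *Sox1* (0.79, SE 0.591), with adjusted p-values of 0.97, 0.611 and 0.499 by limma. *Pax6*, *Tfap2a*, *Eomes* and *Elf3* also overlap annotated antisense genes. *Sox1* overlaps *Sox1ot* and *Gm25239*, both on the same strand, so its values are uncertain to that extent.

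**Figure D3:**
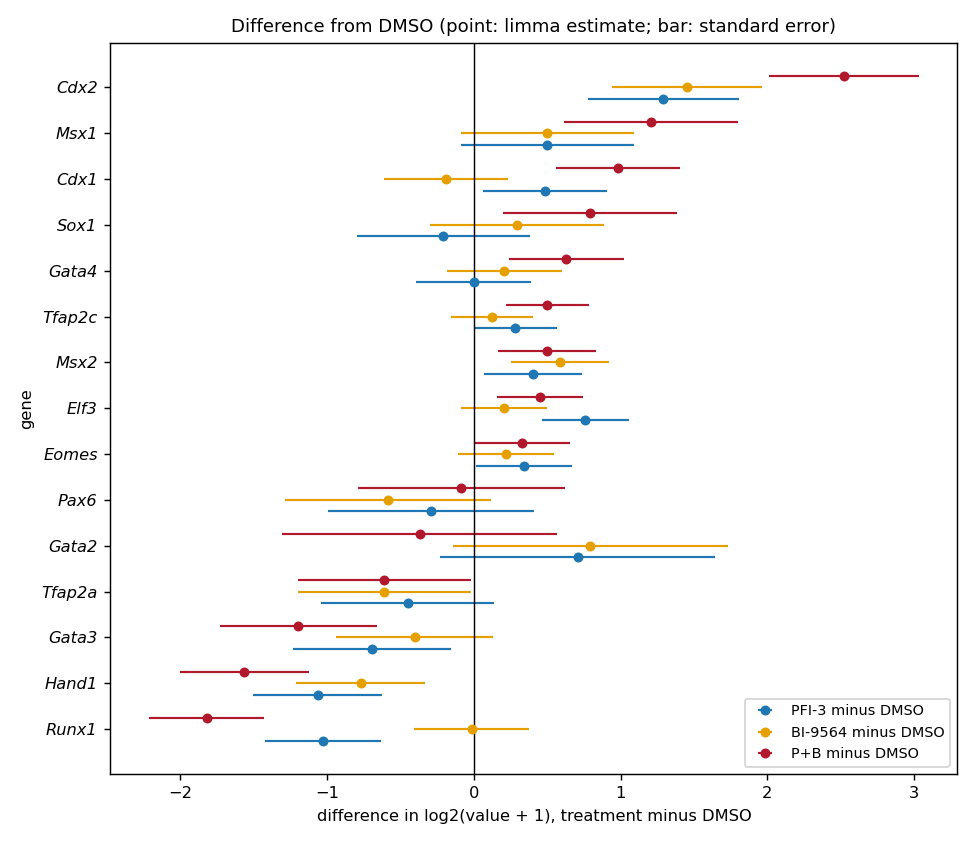
Difference in log2(value + 1) of each treatment from DMSO (horizontal axis) for the 15 detected factors (rows), with SE bars from limma, 2 libraries a group; the comparisons share the DMSO libraries. *Runx1* lies at −1.82 for P+B, −1.03 for PFI-3 and −0.01 for BI-9564, and *Cdx2* lies above 0 with all 3.

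What each compound did by itself was then examined. With PFI-3 alone, *Runx1* and *Hand1* were lower and *Cdx2* and *Elf3* higher in both libraries than in both DMSO libraries, and no other factor was apart. limma called 0 of 15 factors and 0 of 13101 genes (0%), and an unadjusted p under 0.05 was reached by 4 of 15 factors and by 849 genes (6.48%). The groups did not overlap for 4 of 15 factors (26.7%), the same share as the 26.7% of all genes. The 4 factors were *Runx1* (−1.03, SE 0.393, adjusted p = 0.731), *Hand1* (−1.06, SE 0.442, adjusted p = 0.763), *Cdx2* (1.29, SE 0.512, adjusted p = 0.738) and *Elf3* (0.76, SE 0.294, adjusted p = 0.733). Of these, *Cdx2* was tested only because the treated libraries brought it over the detection limit. Single libraries moved all 4: *Runx1* was −1.53 without DMSO replicate 1 and −0.53 without DMSO replicate 2, *Hand1* −1.56 without PFI-3 replicate 1 and −0.56 without PFI-3 replicate 2, and without DMSO replicate 1 or 2 *Cdx2* was 1.79 or 0.79 and *Elf3* 1.16 or 0.36. Beside these, all 10 ESC markers had values above 0 in this difference, with a median of 0.42, and none of them was called; their part in the factors' values was not tested.

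With BI-9564 alone, *Cdx2* was the one factor with an unadjusted p under 0.05 (1.45, SE 0.512, adjusted p = 0.305 by limma). Its difference was 1.95 without DMSO replicate 1 and 0.95 without DMSO replicate 2. As *Cdx2* passed the detection limit only through the treated libraries, this is given as a description. The difference of *Runx1* was close to 0 (−0.01, SE 0.393, 95% interval −0.94 to 0.91). limma called 0 of 15 factors and 0 of 13101 genes (0%), with 1792 genes (13.7%) at an unadjusted p under 0.05, and the groups did not overlap for 2 of 15 factors (*Cdx2* higher, *Hand1* lower), against 37.6% of all genes. *Hand1* differed by −0.77 (SE 0.442, adjusted p = 0.481), *Gata3* by −0.40 (SE 0.537) and *Cdx1* by −0.19 (SE 0.423).

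The 2 compounds, which bind different bromodomain proteins, were set against each other directly. *Runx1* had higher values with BI-9564 (6 and 6 TPM) than with PFI-3 (2 and 3 TPM), by 1.01 (SE 0.393, 95% interval 0.09 to 1.94), but the adjusted p was 0.367 by limma. It was the 1 factor of 15 with an unadjusted p under 0.05, against 1641 of all genes (12.5%), and 0 factors and 0 genes (0%) were called. *Cdx2* differed by 0.16 with an interval of −1.04 to 1.36, and *Hand1* by 0.29 with an interval of −0.74 to 1.33, so that differences of 1 in either direction for *Cdx2* are within what these libraries allow. *Gata3* differed by 0.29 (SE 0.537) and *Cdx1* by −0.68 (SE 0.423). The groups did not overlap for *Runx1* and *Elf3*, 2 of 15, against 36.4% of all genes. Beside this, the fitted difference of BI-9564 minus PFI-3 was below 0 for all 10 ESC markers, with a median of −0.70 against 0 over all genes. Of these markers 0 were called, and the libraries overlapped for some. *Nanog*, for example, was at 59 and 29 TPM with BI-9564 and at 106 and 57 with PFI-3. The part of these markers in the difference of *Runx1* was not tested.

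P+B was also compared with each compound. Against BI-9564, *Runx1* had lower values (1 and 1 against 6 and 6 TPM, difference −1.81, SE 0.393, 95% interval −2.73 to −0.88, adjusted p = 0.299 by limma) and *Cdx1* higher ones (1.17, SE 0.423, adjusted p = 0.567; 0.71 without BI-9564 replicate 1). These 2 of 15 factors had an unadjusted p under 0.05, as had 7.76% of all genes; 0 factors were called, against 2 genes (0.0153%), and the groups did not overlap for 8 of 15 (*Gata4*, *Cdx1*, *Cdx2*, *Tfap2c* and *Msx1* higher, *Runx1*, *Gata3* and *Hand1* lower), against 29% of all genes. Against PFI-3, *Runx1* differed by −0.79 (SE 0.393, adjusted p = 0.394) and *Cdx2* by 1.23 (SE 0.512, adjusted p = 0.32; 0.79 without P+B replicate 2). *Cdx2* was the 1 of 15 with an unadjusted p under 0.05 there, against 15.3% of all genes; 0 factors were called, against 77 genes (0.588%; 14 higher, 0.107%, and 63 lower, 0.481%). The groups did not overlap there for 4 of 15 (*Cdx2*, *Gata4* and *Msx1* higher, *Runx1* lower), against 38.8% of all genes (21.8% higher, 17% lower). *Cdx1* (0.50), *Hand1* (−0.50) and *Gata3* (−0.50) overlapped between P+B and PFI-3. These comparisons share the P+B libraries, and those with DMSO share the DMSO libraries, so they are not independent of each other.

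The spread differed with the level, and its part in the counts of called factors was not tested. Of the 15, 10 had a mean under 5 TPM, where the median SE of P+B minus DMSO was 0.614 (means of 1 to 2, 3 factors) and 0.458 (2 to 5, 7 factors), against 0.151 for genes with means of 20 to 100 TPM. The share of genes called was 0.252% and 1.78% in these classes, 1.97% at 5 to 20 TPM (3 factors), 3.8% at 20 to 100 TPM (*Cdx1* and *Elf3*) and 2.89% at 100 TPM or more (0 factors), where the median SE was 0.0959. Over the 15 factors the SE ran from 0.282 (*Tfap2c*) to 0.937 (*Gata2*).

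**Figure D4:**
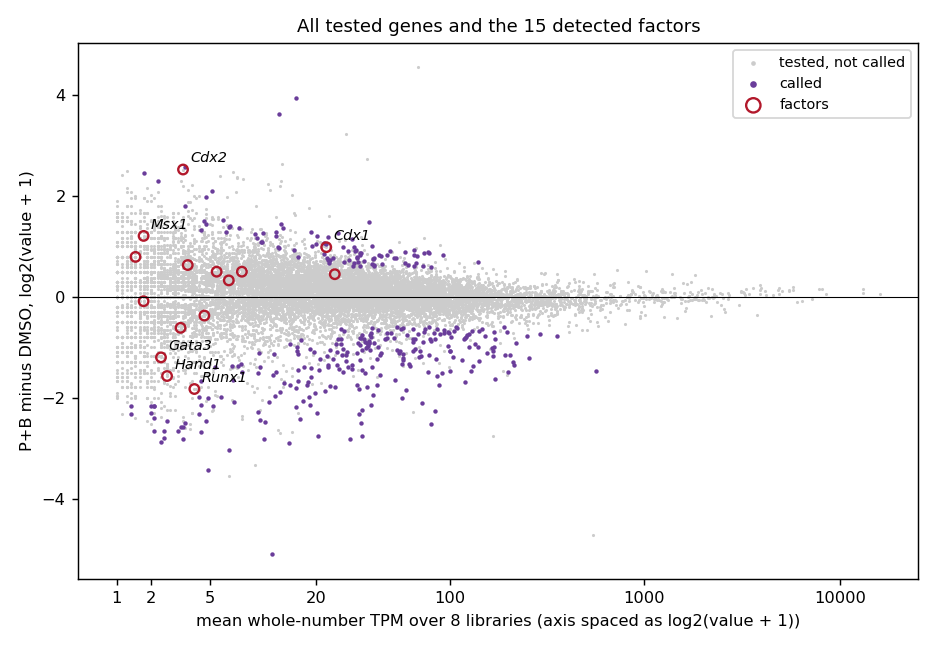
P+B minus DMSO in log2(value + 1) (vertical axis) against the mean whole-number TPM over 8 libraries (horizontal axis, spaced as log2(value + 1)) for the 13101 genes tested; purple points are the 339 called genes and red circles the 15 factors. Of the factors, 13 have means under 20 TPM and 2, *Elf3* and *Cdx1*, lie further right, and *Cdx2* and *Runx1* lie far from 0 without being called.

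Of 11 listed partners and corepressors of RUNX proteins, 7 had a higher mean than *Runx1* itself. *Cbfb*, which encodes the DNA-binding partner, was at 86 and 74 TPM in the DMSO libraries, 87 and 75 in those of PFI-3, 96 and 90 in those of BI-9564 and 97 and 89 in those of P+B (P+B minus DMSO 0.22, SE 0.118, adjusted p = 0.348 by limma). With P+B 9 of the 11 were tested, and 1 fell while 0 rose past the thresholds, against 1.89% and 0.695% of all genes tested. *Tle4*, a Groucho corepressor that RUNX proteins recruit, fell from 108 and 96 TPM with DMSO to 60 and 53 with P+B, while the PFI-3 libraries held 96 and 89 and the BI-9564 libraries 89 and 82 (−0.84, SE 0.109, adjusted p = 0.0128). Its P+B libraries lay under all others, and it also passed against PFI-3 (−0.70, SE 0.109, adjusted p = 0.0486). The call against DMSO was lost without any 1 of 7 libraries (adjusted p up to 0.126, and 0.0498 without BI-9564 replicate 1), and that against PFI-3 without any 1 of the 8 (0.128 to 0.273), with differences of −0.93 to −0.75 and −0.79 to −0.62. *Tle3* also had its 2 lowest values with P+B, with 53 and 51 TPM with DMSO and 38 and 36 with P+B, without passing (−0.48, SE 0.111, adjusted p = 0.0697), whereas *Aes* (0.04, SE 0.0862) and *Cbfa2t2* (0.12, SE 0.174) differed by less than their SE. The median over the 9 was 0.04, against 0.07 over all genes tested.

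Of 41 further lineage factors that are not among the 31, 18 were tested, 13 were at 0 in every library, and 0 were called in any of the 6 comparisons. With P+B 11 of the 18 had a difference above 0 and 6 below, with a median of 0.37 against 0.07 over all genes. Chosen after their values were seen, the 3 factors with differences above 1 in size were *T* (the mesoderm factor brachyury, 0 and 1 TPM with DMSO and 4 and 3 with P+B, 1.66, SE 0.553, adjusted p = 0.156 by limma), *Isl1* (a LIM homeobox factor of heart and motor neuron precursors, 1 and 0 TPM with DMSO and 3 and 3 with P+B, 1.5, SE 0.445, adjusted p = 0.121) and *Tead4* (a factor of trophectoderm, 77 and 67 TPM with DMSO and 45 and 22 with P+B, −1.16, SE 0.288, adjusted p = 0.0816). *Tead4* passed with centring on the library median (−1.23, adjusted p = 0.0451) and without P+B replicate 1 (−1.66, adjusted p = 0.0378), and was −0.66 without P+B replicate 2. Of the 3 trophoblast products that were tested, 2 were called lower with P+B, against 1.89% of all genes tested. These were the keratins *Krt8* (163 and 114 TPM with DMSO, 53 and 30 with P+B, −1.75, SE 0.302, adjusted p = 0.0326 by limma) and *Krt18* (103 and 89, 27 and 20, −2.00, SE 0.239, adjusted p = 0.0101). *Peg10* did not pass (−0.53, SE 0.38). The call of *Krt8* was lost without any 1 of the 8 libraries (difference −2.15 to −1.35, adjusted p = 0.0867 to 0.186), and that of *Krt18* without any 1 of 5, namely PFI-3 replicate 1 and both libraries of DMSO and of P+B (difference −2.20 to −1.79, adjusted p = 0.036 to 0.126). The sum of the 8 trophoblast products was 260 to 360 TPM with DMSO and 87 to 145 with P+B. Only *Peg10*, *Plac1* (at most 2 TPM) and the 2 keratins added to it, as the other products were at 0 in every library. These keratins are also general genes of simple epithelia, and their part in the values of *Cdx2*, *Gata3* and *Hand1* was not tested. Of the ESC markers, *Tdgf1*, a co-receptor of Nodal, fell with P+B (−0.93, SE 0.137, adjusted p = 0.0197) and the other 9 were not called. That call was kept without either BI-9564 library and lost without any 1 of the other 6 (difference −0.97 to −0.90, adjusted p = 0.031 to 0.162).

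Likeness to *Runx1* was measured over the 8 libraries among 10217 genes with a mean of at least 5 TPM. The 5 most like it were *Rhoq* (Pearson r = 0.994), *Mmp2* (0.977), *Prss23* (0.97), *Ptrh2* (0.964) and *Chst15* (0.964), where the 8 points fall in 4 groups of 2. *Mmp2*, which encodes a matrix metalloproteinase, was at 10 and 12 TPM in the DMSO libraries, 7 and 8 in those of PFI-3, 12 and 12 in those of BI-9564 and 6 and 6 in those of P+B, lowest with P+B and next lowest with PFI-3, as *Runx1* was. *Rhoq*, a small GTPase, spanned only 9 to 13 TPM. These values are the top of a ranking of all those genes and are given as a description.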

How the data were processed

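RNA-seq of 8 libraries (2 each with DMSO, PFI-3, BI-9564 and P+B, all with doxycycline) was analysed, with groups taken from the labels. Libraries were made from oligo-dT enriched mRNA, and the submitters' processing notes name bcl2fastq, Bowtie2 2.2.5, RSEM 1.3.0 and mm10; the strand setting is not given in the sources used here. The authors deposited 1 table, in which each value is a score, namely TPM that the authors turned into whole numbers; whether decimals were rounded or dropped is not given. TPM keeps no depth, so the study's DESeq2 was not run. In R 4.3.3, limma 3.58.1 (lmFit, eBayes with a trend) was run on log2(value + 1) for genes with a mean of at least 1, in 6 comparisons. The procedure was tried on simulated data with changes planted only in genes with a mean of at least 5. That trial does not cover the factors with lower means.

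The members and gene lists were chosen with earlier results of these data known. All 31 members are named, with called genes of the RUNX partner list and the list of other lineage factors, up to 4 more partners by mean, the 5 genes most like *Runx1*, and markers of ESCs, fibroblasts, endoderm and trophoblast. Differences are given for all detected members against DMSO with P+B, and in the other comparisons mainly for *Runx1*, *Hand1*, *Gata3*, *Cdx1* and *Cdx2*, which were chosen after their values were seen. Positions are from GENCODE M21 on GRCm38, those of 2 members were left out, and promoters are from RefSeq. Alternatives were the replicate block, pseudocounts, filters, normalizations, the trend, the libraries in the fit and left-out libraries.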

Additional observations from a re-analysis of the deposited data

How the results depend on the processing

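Libraries of the 4 groups share replicate numbers, but the numbers were not taken to pair them: over genes with a mean of at least 1, the replicate differences of 2 groups had correlations of 0.0892 to 0.165, over 0.1 in 5 of 6 pairs of groups (with a mean of at least 5, 0.143 to 0.236 and 6 of 6). With the replicate block 3 factors were called with P+B against DMSO, *Runx1* (adjusted p = 0.0359 by limma), *Cdx1* (0.0245) and *Cdx2* (0.0403), among 647 genes in place of 339. With centring on the library median 2 were called, *Runx1* (0.0428) and *Cdx2* (0.0415). The count of called factors was 0 under the other alternatives, without each library in turn, and in the other 5 comparisons under every alternative run. Detected factors numbered 10 (at least 1 TPM in all libraries) to 15. Of 750 recomputed factor differences outside left-out libraries, 744 kept direction and side, 5 became called and 1 turned (*Gata2* with P+B, 0.0225 with a pseudocount of 5). Without 1 library, 35 of 90 differences changed sign and 0 became called. Among the differences given above, those with P+B against DMSO ranged from −1.95 to 1.22 (*Gata2*), −0.011 to 0.67 (*Eomes*), −0.59 to 0.42 (*Pax6*) and −1.40 to 0.18 (*Tfap2a*); with BI-9564 against DMSO from −0.51 to 0.49 (*Runx1*), −1.01 to 0.21 (*Gata3*) and −0.66 to 0.28 (*Cdx1*); and with BI-9564 against PFI-3 from −0.21 to 0.79 (*Gata3* and *Hand1*) and −0.21 to 0.53 (*Cdx2*). For the genes that are not members, the same alternatives were added after seeing the data: the sign of *Aes* turned with centring (−0.034), *Tead4* was called with the replicate block (adjusted p = 0.0348), and with only the 4 libraries compared *Tle4* (0.177), *Krt8* (0.203), *Krt18* (0.165) and *Tdgf1* (0.165) lost their calls with P+B against DMSO. *Krt8* also lost it without a filter (0.0711) or a trend (0.0746) and *Tdgf1* without a trend (0.059), and *Tle4* lost that against PFI-3 in these 3 settings (0.0788 to 0.255).

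The background counts moved more. For P+B against DMSO they were 201 without a filter, 221 without a variance trend, 0 with only the 4 libraries compared, and 0 to 114 without 1 library. For P+B against PFI-3 (77) they were 231 with the block, 134 at a mean of at least 5, 149 with centring, 6 without a filter, 0 without a trend or with only 4 libraries, and 0 to 2 without 1 library. For P+B against BI-9564 (2) they were 0 to 36, for BI-9564 against DMSO (0) 0 to 41 and for BI-9564 against PFI-3 (0) 0 to 37, the highest being with the block in each; for PFI-3 against DMSO they were 0 to 1. The cause was not tested.

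Limits: 2 libraries a group, whole-number values of 1 to 10 TPM for most detected factors, an unknown depth, and no library without doxycycline.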
